A study of Mus musculus with 768 samples.

Results

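Cytosolic ribosomal protein genes (RP genes) encode the protein part of the ribosome that translates nuclear messages, and the members described here were the genes of the count table whose mouse symbol is Rpl or Rps followed by a number, together with Rplp0, Rplp1, Rplp2 and Rpsa. This gave 85 of the 25700 genes in the table, of which 52 encode proteins of the large subunit and 33 of the small subunit. The 9 symbols that end in -ps, the 10 Rps6k kinases and the binding protein gene Rps19bp1 were left out. The members were chosen by name and not by their values, and 82 of the 85 passed the filter on low counts in the tests. Rpl3l had 0 reads in the cells that were kept, Rpl10l had 5 and Rpl39l had 2.

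Schwann cells (SCs), which ensheath and myelinate the axons of peripheral nerves, had been sorted from the sciatic nerve of adult mice at postnatal day 60 (P60). All cells came from mice on the C57bl/6J background that carried a Cre recombinase that is active in the SC lineage, ReYFP (a Rosa26 reporter that turns on yellow fluorescent protein after recombination) and βAct-DsRed (a red fluorescent transgene under the β-actin promoter). Yellow cells were sorted singly into 2 plates of 384 wells, and each plate held the pooled cells of 2 male and 2 female mice that differed from those of the other plate, and no treatment was named. The Cre is active from the SC lineage's embryonic stages onward, so the reporter marks the lineage and not a mature cell type. Messages were amplified with Smart-seq2, which covers the whole transcript and has no molecular identifiers, so reads were counted. In the 674 cells with 1500 or more detected genes the reads in genes came to 74175249 in plate 1 and 208370428 in plate 2, with a median of 158689 and 452484 reads per cell.

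Each ribosome holds 1 copy of nearly every ribosomal protein, and the genes are known for being expressed together at high levels in all tissues. Their messages begin with a run of pyrimidines, the 5′ terminal oligopyrimidine (TOP) tract, through which the kinase mTORC1 and the RNA-binding protein Larp1 set their translation and stability. In the SC lineage mTORC1 is known to be high before myelination and to fall when myelination starts. The level of an RP message is therefore not a measure of the protein made from it.

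Stretches of sequence around the annotated start are shown for runs of pyrimidines in members on which the results turn, namely 4 that passed the test in the comparison of cluster 1 below and Rpl7a, which had the lowest ratio there. Each line gives 30 bases before and 20 bases after the RefSeq start (GRCm38.p6), 5′ to 3′ on the strand of the gene, with the longest run of C and T in capitals.
Rpl13, chr8:123102320-123102369, plus strand: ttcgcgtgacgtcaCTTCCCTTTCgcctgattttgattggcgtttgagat
Rplp0, chr5:115559437-115559486, plus strand: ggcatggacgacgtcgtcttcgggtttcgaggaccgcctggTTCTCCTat
Rpl10, chrX:74270786-74270835, plus strand: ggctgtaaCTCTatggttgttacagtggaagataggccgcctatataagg
Rps4x, chrX:102189372-102189421, minus strand: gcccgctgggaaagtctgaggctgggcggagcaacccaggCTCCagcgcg
Rpl7a, chr2:26910777-26910826, plus strand: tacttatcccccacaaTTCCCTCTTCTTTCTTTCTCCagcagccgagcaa
The run was 21 bases long in Rpl7a, 10 in Rpl13, 7 in Rplp0 and 4 in both Rpl10 and Rps4x. It spanned the annotated start only in Rpl7a, ended before it in Rpl13 and Rpl10, and began after it in Rplp0 and Rps4x, so that in these 4 the marked run is not a tract at the annotated 5′ end. The starts of Rpl10 and Rps4x in particular may lie away from the main start of the message, and their short runs do not show that a TOP tract is lacking. RefSeq promoters were found for 65 of the 85 members. Within 50 bases of the start on either side, a run of 10 or more C or T on the gene strand was present in 63.1% of the 65 members and in 18% of all 27025 genes. The letters CTTTC were present on the gene strand in 49.2% of members against 12.6% of all genes, and on the other strand in 12.3% against 11.8%. For CTTCC, which can overlap such runs, the shares were 44.6% against 19.8% on the gene strand and 32.3% against 22% on the other. These matches describe the letters in the window and not the use of a site.

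To compare myelinating (mSC) and non-myelinating, Remak (nm(R)SC) cells, the classes were rebuilt by clustering the cells on all genes except the members, and clusters were named from fixed marker genes. Of the 7 clusters, clusters 0 (175 cells, led by Apoe and Scn7a), 1 (121 cells, led by Ednrb), 3 (108 cells, led by Apoe and Aldh1a1) and 6 (19 cells, led by protocadherin alpha genes) were nm(R)SC-like. Clusters 2 (116 cells, led by Ncmap and Emid1) and 4 (106 cells, led by Mfap5 and Ogn) were mSC-like, and cluster 5 (29 cells, led by cell-cycle genes) stayed unnamed. Although no member had taken part in the clustering, Rps2, Rps3, Rps26, Rpl13 and Rpsa were among the 10 genes with the largest rise in cluster 1.

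The lineage markers Sox10, S100b and Erbb3 were read in every cluster and plate. Cluster 1 was the nm(R)SC-like cluster with the weakest hold on its name: it had the highest Ednrb, at 1052 (plate 1) and 855 (plate 2) CPM (the reads of a gene scaled to a common total of reads in genes), but Scn7a, a sodium channel gene of mature Remak cells, was at 185 and 544 CPM there against 2654 and 1608 CPM in cluster 0. When the plates were not integrated before clustering, 52 of its 59 cells of plate 1 and 17 of its 62 cells of plate 2 fell in clusters named mSC-like. Of the markers of other cell types, the defining markers Ptprc (immune cells) and Pdgfra (fibroblasts) were at 0 to 0.546 CPM in clusters 0 to 4. Others of their lists reached higher levels in single sums. Dcn, a fibroblast proteoglycan, was at 52.7 and 121 CPM in cluster 1 and at 91.3 CPM in cluster 3 of plate 1, and Lyz2, a lysozyme of macrophages, was at 24.6 CPM in cluster 1 of plate 1 and 26.1 CPM in cluster 0 of plate 2. The collagen genes of the fibroblast list, which SCs also express, were read in all 5 clusters.

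Over all kept cells the members took 3.03% of the reads in plate 1 and 1.5% in plate 2. The share of a single cell ran from 0.652% to 14.2% in plate 1, with a median of 2.79%, and from 0.0260% to 6.55% in plate 2, with a median of 1.37%. Plate 1 was thus higher by 2.02-fold. The excess was found in each of clusters 0 to 4, from 1.6-fold in cluster 2 to 2.32-fold in cluster 0. It was smaller in the unnamed cluster 5, with 3.39% in plate 1 (16 cells) and 2.57% in plate 2 (13 cells). Plate, animals and sequencing depth cannot be told apart here. Counting error was small beside this, since the widest 95% Wilson interval of a share in clusters 0 to 4 was 0.013 percentage points on either side, which covers counting error only.

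Of the 82 members with 100 or more reads, 80 had more CPM in plate 1 than in plate 2, by a median of 2.30-fold. The exceptions were Rpl7l1, at 0.543-fold, and Rpl4, at 0.887-fold. At the other end stood Rpl39, at 8.84-fold. Rplp0 hardly moved, at 1339 CPM in the first and 1230 CPM in the second. The order of the members by level per length was much alike in the plates (Spearman's rho of 0.882 across 82 genes, which are not independent), and the plate difference followed the length of the exons only weakly (rho of -0.195).

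The highest levels per length, in CPM per kilobase of the union of annotated exons over all kept cells, belonged to Rplp0 (759) and Rplp1 (600), and Rpl41 (350) and Rpl36 (348) were also among the highest 5. Rplp0 and Rplp1 belong to the stalk of the large subunit that recruits elongation factors, and Rpl41 encodes the shortest protein of the ribosome. The median of the 82 members was 104. Rplp0 was read in all cells of plate 1 and in 99.7% of those of plate 2.

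The first comparison asked whether the share of reads in RP genes differed between the classes, and it gave opposite orders in the plates. In plate 1 the mSC-like cells gave 2.08% of their reads to members and the nm(R)SC-like cells 3.72%, which was 1.79-fold higher. In plate 2 the mSC-like cells gave 1.64% and the nm(R)SC-like cells 1.45%, which was 0.882-fold. The class shares therefore did not have a common direction in the 2 plates, and the mean log2 ratio of 0.33 was smaller than the SD of 0.72 between the plates (n = 2). No test of the share was run.

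The classes were not made of the same clusters in the plates. Cluster 4, with the lowest share, supplied 59.5% of the mSC-like cells on plate 1 and 24.3% of those on plate 2. Cluster 1, with the highest share among the named clusters, supplied 33.5% of the nm(R)SC-like cells on plate 1 and 25.1% of those on plate 2. When clusters 2 and 4 were given equal weight, and clusters 0, 1 and 3 likewise, the shares were 2.32% in mSC-like against 3.70% in nm(R)SC-like cells for plate 1, and 1.34% against 1.65% for plate 2. With that weighting, which was chosen after the data were seen, the nm(R)SC-like value was the higher in both plates.

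Gene by gene, no member was called between the classes (0 of 82 with an adjusted p under 0.05, and 0 with an unadjusted p under 0.05, where 12.5% of other genes had one, by the quasi-likelihood test of edgeR on sums per plate and class). DESeq2 called 0 as well. Of the 13104 other genes tested, 2.11% were called. The median log2 ratio of the members, nm(R)SC-like over mSC-like, was 0.18, beside 0.13 for the other genes. By plate, 80 of 82 members were higher in nm(R)SC-like cells in plate 1 and 19 in plate 2, so that 19 (23.2%) were higher in both, beside 33.4% of the other genes. The highest log2 ratios, none of them called, were those of Rps4x (0.83 ± 0.38, SE), Rpl22 (0.64 ± 0.48) and Rps10 (0.63 ± 0.37), and the lowest were those of Rpl7a (-0.43 ± 0.39), Rpl12 (-0.35 ± 0.50) and Rpl22l1 (-0.33 ± 0.45). On simulated counts with the same 4 sums, 0 of 100 genes changed 2-fold and 14 of 100 changed 4-fold were called, and so were 7 unchanged genes. The test thus missed most changes of these sizes in genes at large. The changed genes were drawn from all genes above a limit on counts, so the power for the members themselves was not measured.

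**Figure D1:**
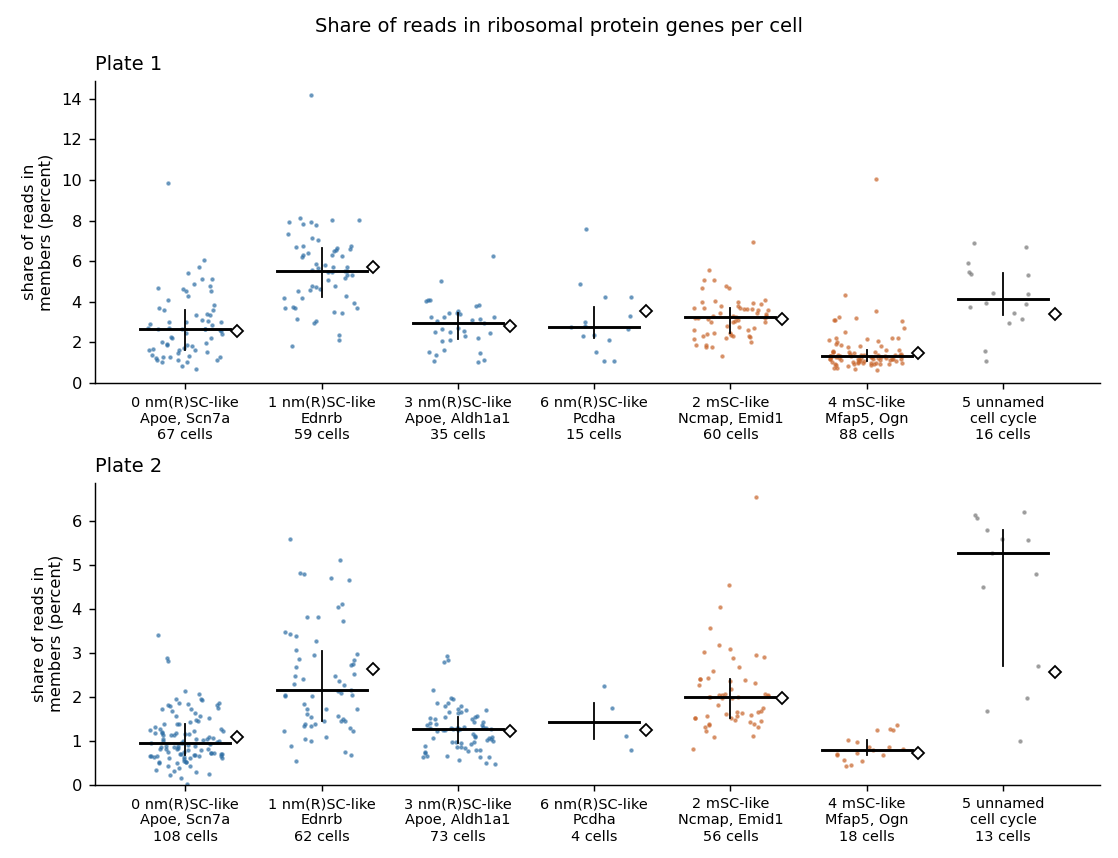
Share of reads in members per cell, in percent of all reads in genes, by cluster for plate 1 and plate 2. Points are cells, horizontal bars medians, vertical bars quartiles, and diamonds the share of the summed reads. Cluster 1 had the highest median of the named clusters and cluster 4 the lowest in both plates.

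The picture changed at the level of the clusters, where the order of clusters 0 to 4 was the same in both plates. Cluster 1 had the highest share, with 5.73% in plate 1 and 2.63% in plate 2. Cluster 2 followed with 3.15% and 1.97%. Cluster 3 had 2.82% and 1.22%, and cluster 0 had 2.54% and 1.10%. Cluster 4 had the lowest share, with 1.48% and 0.713%. The 15 cells of cluster 6 in plate 1 had 3.53%, above cluster 2, and its 4 cells in plate 2 had 1.24%, below cluster 2.

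Cells of 1 cluster overlapped with those of others but their quartiles were apart at the extremes. In cluster 1 the quartiles were 4.23% and 6.63% in plate 1 and 1.45% and 3.05% in plate 2. In cluster 4 they were 1.09% and 1.64% in plate 1 and 0.671% and 1.01% in plate 2. In cluster 2 they were 2.48% and 3.71% in plate 1, between those of clusters 1 and 4, and 1.53% and 2.40% in plate 2, within the range of cluster 1. Clusters 0 and 3, which share their leading gene Apoe, had overlapping quartiles in both plates.

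Within the nm(R)SC-like cells, cluster 1 was above cluster 0 by 2.26-fold in plate 1 and 2.40-fold in plate 2, and above cluster 3 by 2.03-fold and 2.16-fold. Within the mSC-like cells, cluster 2 was above cluster 4 by 2.13-fold and 2.77-fold. Relative to cluster 2, cluster 1 was 1.82-fold and 1.33-fold higher, whereas cluster 0 was at 0.807-fold and 0.556-fold and cluster 3 at 0.894-fold and 0.617-fold. Non-myelinating cells of clusters 0 and 3 thus lay between the mSC-like clusters in both plates, above cluster 4 and below cluster 2.

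Other measures also differed between the clusters, but not always in the order of these shares. The median share of reads in mitochondrially encoded genes was 4.02% and 1.62% in cluster 1, 3.75% and 2.04% in cluster 2, and 1.61% and 0.810% in cluster 4 of plates 1 and 2. It was 2.74% and 1.16% in cluster 3 and 2.55% and 1.18% in cluster 0. In plate 2 cluster 2 was thus above cluster 1. Across kept cells the rank correlation of the mitochondrial share with the share of members was 0.558 in plate 1 and 0.380 in plate 2. Within single clusters 0 to 4 it ran from 0.165 to 0.393 in plate 1 and from 0.017 to 0.486 in plate 2. These values are a description over cells that share libraries and a denominator. The summed level of 16 immediate early and heat shock genes, which respond to dissociation of tissue, was 18790 and 26770 CPM in cluster 1, 14780 and 34900 CPM in cluster 2, and 6254 and 13060 CPM in cluster 4. It was 11290 and 17280 CPM in cluster 3 and 13800 and 12870 CPM in cluster 0. In plate 2 cluster 2 was above cluster 1, and cluster 0 was slightly below cluster 4. The 50 other genes with most reads took 16.7% and 19.5% of reads in cluster 1 and 26.1% and 29.0% in cluster 4, and Pmp22 alone, a protein of compact myelin, stood at 74810 and 114500 CPM in cluster 4. The part of these in the result was not tested beyond the denominators that follow. Without those 50 genes in the denominator the order of the clusters in both plates was unaltered, with 6.89% and 3.26% in cluster 1, 4.09% and 2.62% in cluster 2, 3.61% and 1.59% in cluster 3, 3.21% and 1.43% in cluster 0, and 2.00% and 1.00% in cluster 4.

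Read depth did not run with the share in a common way. The median number of reads per cell was 167504 and 190308 in cluster 1 and 159392 and 562454 in cluster 4 of plates 1 and 2, so that cluster 1 was shallow in plate 2 only. In cells with 100000 or more reads thinned to that number, the median cell of cluster 1 had reads in 81 members in plate 1 and 62 in plate 2, while that of cluster 4 had reads in 63.5 and 45. The other clusters had medians of 78 and 58 (cluster 2), 76 and 49 (cluster 3) and 66 and 39 (cluster 0). Thinning left out 17 and 7 cells of cluster 1 and 28 and 0 of cluster 4. Before thinning the medians were 81 and 68 in cluster 1 and 68 and 63.5 in cluster 4.

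Large and small subunit genes moved together. The reads of large subunit members over those of small subunit members came to 1.44 in cluster 1, 1.49 in cluster 2, 1.39 in cluster 3, 1.48 in cluster 0 and 1.75 in cluster 4 of plate 1. In plate 2 the ratios were 1.89, 1.78, 1.96, 1.84 and 1.83. The range over clusters was narrow beside the 3.88-fold (plate 1) and 3.69-fold (plate 2) range of the share itself, and all ratios of plate 2 were above those of plate 1.

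Each nm(R)SC-like cluster was then compared with the mean of the mSC-like clusters, gene by gene. In cluster 1, 4 members rose and none fell by edgeR with Benjamini-Hochberg adjustment over all genes, beside 1.19% of 13192 other genes that were called higher. At an unadjusted p under 0.05, 49 of 82 members were higher and 0 lower, beside 7.43% of the other genes that were higher. The log2 ratio was positive for all 82 members tested, from 0.34 to 1.69 with a median of 1.00, where the other genes had a median of 0.16. In each plate taken alone the medians were 1.17 and 0.88, and 77 members (93.9%) were higher in both plates, beside 30.7% of the other genes. In simulated counts for this comparison, 0 of 100 genes changed 2-fold were called and 15 had an unadjusted p under 0.05, and of 100 changed 4-fold 2 were called. Here too the changed genes were drawn from all genes and not from the members.

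Markers of fibroblasts and of cycling were also higher in cluster 1, but those of other cell types were not uniformly so. All 5 fibroblast markers tested had a positive log2 ratio over the mSC-like clusters, with a median of 1.72, and 1 was called, the fibrillar collagen gene Col3a1 (2.26 ± 0.40, adjusted p = 0.0259 by edgeR). The summed level of the 6 genes of that list was 5142 and 2249 CPM in cluster 1, against 1278 to 3313 CPM in clusters 0, 2, 3 and 4 of plate 1 and 950 to 1391 CPM in those of plate 2. The rise of Col3a1 was not particular to cluster 1. In cluster 0, where no member was called, Col3a1 was called as well (2.17 ± 0.41, adjusted p = 0.0218 by edgeR). It stood there at 1572 and 548 CPM, against 1433 and 536 CPM in cluster 1. Of 6 cell-cycle markers 5 had a positive ratio, and Cenpf, which encodes a kinetochore protein, was called (6.68 ± 1.16, adjusted p = 0.0234 by edgeR). Their summed level was 147 and 41.7 CPM in cluster 1, against 6.35 to 47.2 CPM and 2.86 to 5.80 CPM in the other 4 clusters. Cenpf itself was at 54.3 and 32.4 CPM in cluster 1 and 41.6 and 0.363 CPM in cluster 0. In clusters 2 and 4 it was near the floor, at 0.14 to 1.74 CPM. Between the classes, where no member was called, Cenpf was called as well (4.69 ± 0.88, adjusted p = 0.0471 by edgeR). The 3 immune markers tested had positive ratios and none was called. The part of these in the result was not tested.

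Rps4x, an X-linked gene of the small subunit, stood in cluster 1 at 939 CPM (plate 1) and 448 CPM (plate 2), at 496 and 247 CPM in cluster 2 and at 135 and 150 CPM in cluster 4. Within each plate cluster 1 was the highest and cluster 4 the lowest. Its log2 ratio was 1.51 ± 0.34 (SE, adjusted p = 0.0414 by edgeR), a call that was lost in 6 of 7 alternative settings. These CPM, and those of members below, are scaled by the TMM factors of the fit.

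Rpl10, an X-linked large subunit gene whose protein joins late in assembly, was at 1099 and 715.5 CPM in cluster 1, 641 and 606 CPM in cluster 2, and 229 and 117 CPM in cluster 4. It rose by 1.46 ± 0.29 on the log2 scale (adjusted p = 0.0242 by edgeR), and the call was lost in 2 of 7 alternative settings. Cluster 4 stood apart from all other clusters for this gene in both plates.

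Rpl13, a large subunit gene, was at 1094 and 817 CPM in cluster 1, 562 and 589 CPM in cluster 2, and 192 and 212 CPM in cluster 4, with no overlap between the clusters. Its log2 ratio was 1.45 ± 0.33 (adjusted p = 0.0443 by edgeR), and the call was lost in 5 of 7 alternative settings.

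Rplp0, the stalk protein that anchors the other stalk proteins to the ribosome, was at 2474 and 2260 CPM in cluster 1, 1406 and 2075 CPM in cluster 2, and 576 and 624 CPM in cluster 4. In plate 2 cluster 2 came close to cluster 1. Its log2 ratio was 1.23 ± 0.23 (adjusted p = 0.0181 by edgeR), and it was the only one of the 4 still called in 6 of 7 alternative settings. With a minimum of 2500 detected genes per cell none of the 4 was called.

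**Figure D2:**
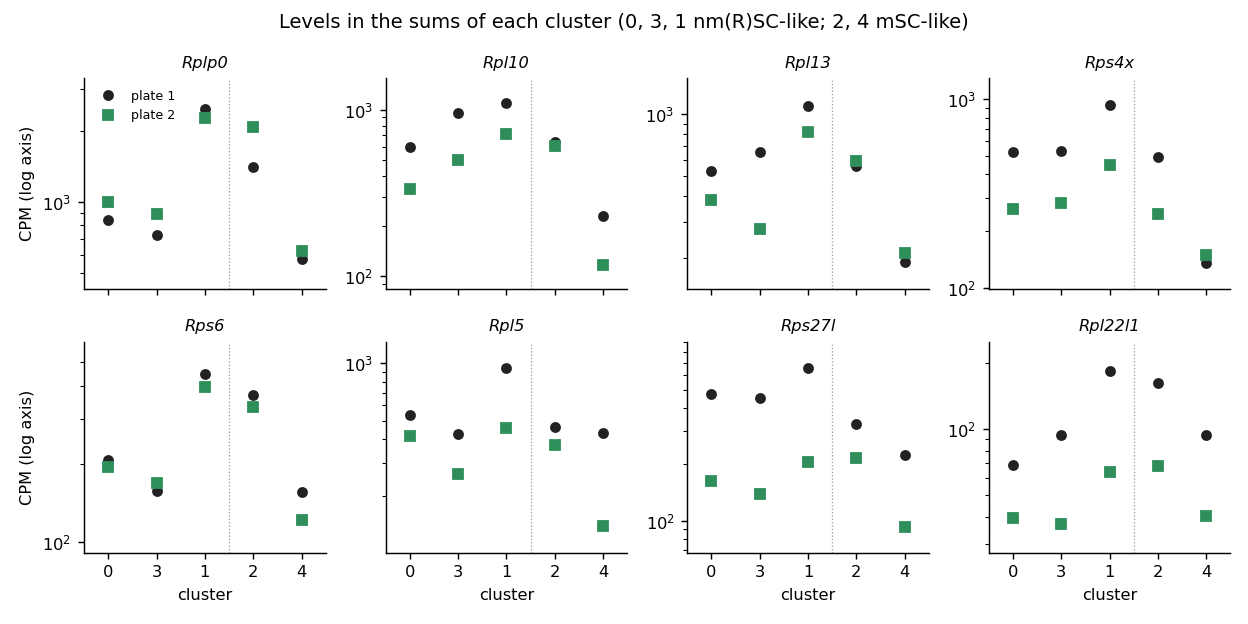
Levels of 8 members in CPM on a log axis, in the summed cells of clusters 0, 3, 1, 2 and 4, with circles for plate 1 and squares for plate 2. The dotted line separates nm(R)SC-like from mSC-like clusters. All 8 were higher in cluster 1 than in clusters 0 and 3 of the same plate, and Rpl5 of plate 1 was as high in cluster 4 as in cluster 3.

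In cluster 0, no member was called against the mSC-like clusters (1 had an unadjusted p under 0.05, against 13.5% of other genes, and DESeq2 called 0), beside 3.13% of 13192 other genes. The median log2 ratio of the members was -0.05, beside 0.24 for the other genes. The highest ratios, not called, were those of Rpl22 (0.87 ± 0.62), Rps10 (0.71 ± 0.40) and Rps4x (0.70 ± 0.34), and the lowest were those of Rps15 (-0.81 ± 0.46), Rpl3 (-0.79 ± 0.30) and Rpl7a (-0.77 ± 0.38). In plate 1, 51 of 82 members were higher in cluster 0, and in plate 2, 29.

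In cluster 3, no member was called either (3 had an unadjusted p under 0.05, against 14.3% of other genes, and DESeq2 called 0), beside 4.12% of 6601 other genes. The median log2 ratio was 0.21, beside 0.06. Rpl10 had the highest ratio (1.10 ± 0.29, adjusted p = 0.0589 by edgeR), followed by Rps29 (0.89 ± 0.33) and Rps13 (0.89 ± 0.43). Rpl12 (-0.89 ± 0.57), Rpl29 (-0.89 ± 0.61) and Rps3a1 (-0.86 ± 0.59) had the lowest. In cluster 6, which had too few cells in plate 2 for a sum, the median log2 ratio was 0.40 with no test.

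Among clusters 0, 1 and 3, a single test of any difference called 0 of 82 members and 0 of 6601 other genes with edgeR. At an unadjusted p under 0.05 there were 31 of 82 members and 3.61% of the other genes, and DESeq2 called 0 members. A comparison of cluster 1 with the mean of clusters 0 and 3, added after the data were seen, called 0 members (46 at an unadjusted p under 0.05, all higher, beside 3.32% of the other genes, and 2 called by DESeq2). All 82 members were nevertheless higher in cluster 1 in both plates, beside 26.1% of the other genes, with medians of 0.91 and 0.94 on the log2 scale. Rplp0 came closest, with a log2 ratio of 1.47 ± 0.23 (adjusted p = 0.0908 by edgeR).

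**Figure D3:**
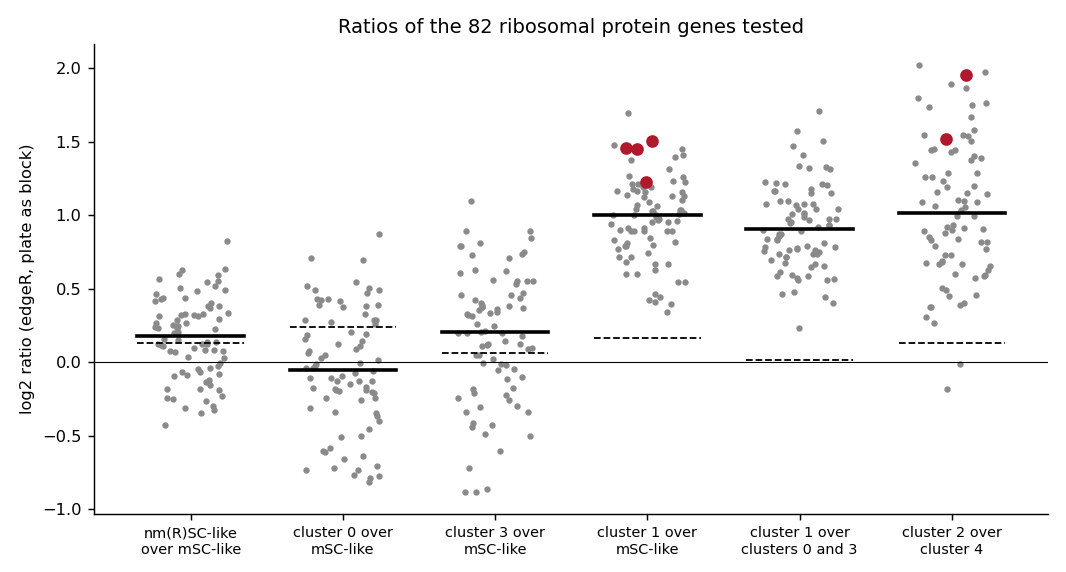
Log2 ratios of the 82 members tested in 6 comparisons, with called members as large red points. Solid bars are medians of the members and dashed bars medians of the other genes. The members lay around 0 in the first 3 comparisons and around 1 in the last 3.

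The mSC-like clusters were compared with each other, also after the data were seen. Cluster 2 over cluster 4 had a median log2 ratio of 1.02 for the members, beside 0.13 for the other genes, and 80 of 82 members (97.6%) were higher in cluster 2 in both plates, beside 28.5% of the other genes. The 2 members Rpl10 (log2 ratio 1.96 ± 0.36, adjusted p = 0.0470 by edgeR) and Rplp0 (1.52 ± 0.28, adjusted p = 0.0470 by edgeR) were called, beside 0.167% of 13192 other genes called higher. Each of these calls was lost in 5 of 7 alternative settings, with adjusted p up to 0.739 for Rpl10 and 0.294 for Rplp0 by edgeR or DESeq2. At an unadjusted p under 0.05, 40 members were higher and 0 lower, beside 4.03% of the other genes that were higher. Rpl22 had the lowest ratio of the members (-0.18 ± 0.72), with 90.8 and 43.5 CPM in cluster 2 and 66.8 and 68.1 CPM in cluster 4. Cluster 4 had 88 cells in plate 1 but 18 in plate 2. The 16 dissociation-response genes moved by as much, with a median log2 ratio of 1.06. Of these, 10 had an unadjusted p under 0.05, all higher in cluster 2, and Klf6, a zinc finger factor, was called (1.72 ± 0.31, adjusted p = 0.0473 by edgeR). Genes of this list were also called over the mSC-like clusters in clusters where no member was called. These were Klf6 in cluster 3 (1.16 ± 0.25, adjusted p = 0.0235 by edgeR) and Hspa1a in cluster 0 (2.49 ± 0.48, adjusted p = 0.0234 by edgeR). The part of the dissociation-response genes in the result was not tested.

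**Figure D4:**
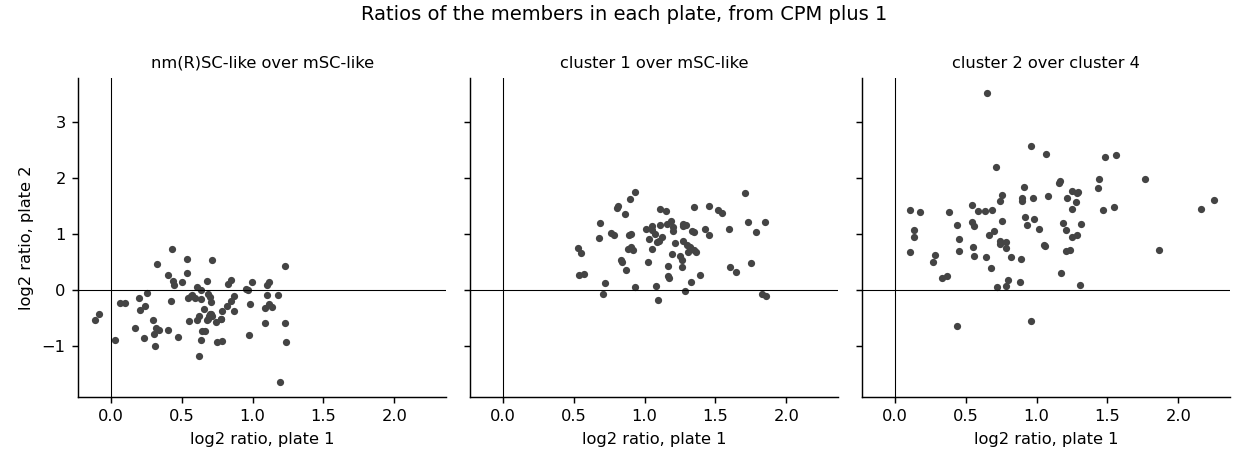
Log2 ratio of each of the 82 members in plate 1 (x axis) and plate 2 (y axis), from CPM plus 1, for the classes, for cluster 1 over the mSC-like clusters, and for cluster 2 over cluster 4. For the classes 80 members were above 0 in plate 1 but 19 in plate 2, while in the other panels 77 and 80 members were above 0 in both.

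How far the single members differed from each other in these changes was not settled by the 2 plates. Across the 82 members the log2 ratios of cluster 1 over the mSC-like clusters in plate 1 and in plate 2 had a Spearman's rho of 0.0665, and those of cluster 2 over cluster 4 a rho of 0.385. The members thus moved in the same direction, but the order in which they moved in one plate was not that of the other for cluster 1.

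By role, the 3 genes of the stalk were all higher in cluster 1 than in the mSC-like clusters at an unadjusted p under 0.05. So were most of the members as a whole, as given above, and the count does not set the stalk apart. Rplp1 was at 810 and 351 CPM in cluster 1, 408 and 394 CPM in cluster 2, and 241 and 121 CPM in cluster 4, with a log2 ratio of 1.01 ± 0.35 that was not called. Rplp2 was at 253 and 146 CPM in cluster 1 against 186 and 73.9 CPM in cluster 2 and had a ratio of 1.27 ± 0.46. In plate 2, Rplp1 was higher in cluster 2 than in cluster 1.

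Rpl5 and Rpl11 form the particle with 5S rRNA that binds Mdm2 when ribosome assembly fails. Rpl5 was at 941 and 455 CPM in cluster 1, 464 and 373 CPM in cluster 2, and 432 and 139 CPM in cluster 4, with a log2 ratio of 1.00 ± 0.34 (adjusted p = 0.207 by edgeR). Rpl11 was at 497 and 239 CPM, 298 and 173 CPM, and 178 and 97.0 CPM in the same clusters, with a ratio of 0.99 ± 0.35. Neither was called in any of the comparisons.

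Rps6, the protein that S6 kinase phosphorylates downstream of mTORC1, was at 446 and 399 CPM in cluster 1, 370 and 333 CPM in cluster 2, and 155 and 121 CPM in cluster 4. Clusters 0 (207 and 194 CPM) and 3 (157 and 168 CPM) were well below cluster 2 in both plates. The log2 ratio of cluster 1 over the mSC-like clusters was 0.94 ± 0.34 and over clusters 0 and 3 it was 1.22 ± 0.34, and neither was called. Between the classes it was -0.08 ± 0.37.

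Of the members known to be mutated in Diamond-Blackfan anaemia, a failure of red cell formation, a chosen list of 10 was examined. All 10 had a positive ratio in cluster 1, with a median of 1.12, and 8 of them had an unadjusted p under 0.05, but none was called. These counts stand beside 82 of 82 positive ratios, a median of 1.00 and 49 of 82 at that p for the members as a whole. Rps26 had the highest ratio of all members there. It was at 563 and 203 CPM in cluster 1, 249 and 141 CPM in cluster 2, and 118 and 25.5 CPM in cluster 4, with a log2 ratio of 1.69 ± 0.40 (adjusted p = 0.0569 by edgeR). Rps19, the gene most often mutated in the disease, had a ratio of 1.19 ± 0.37.

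The 4 X-linked members were Rpl10, Rps4x, Rpl36a and Rpl39, and the first pair was called in cluster 1. Rpl36a, a large subunit gene, was not called (adjusted p = 0.313 by edgeR). Rpl39 was at 257 and 23.7 CPM in cluster 1 and at 150 and 44.5 CPM in cluster 2, so that the plates disagreed in direction, and its ratio was 0.43 ± 0.58.

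Several RP genes have paralogs, and the expression of some of these is limited to certain tissues. The list of 9 held Rpl3l, Rpl7l1, Rpl10l, Rpl22l1, Rpl36al, Rpl39l, Rps27l and Rps27rt as members, while Rps4l was not analysed here. The muscle form Rpl3l and the germline forms Rpl10l and Rpl39l had at most 5 reads in all kept cells, where their parents Rpl3, Rpl10 and Rpl39 had 137796, 145076 and 17097 reads. Rps27l, a target of p53, was at 579 CPM per kilobase in plate 1 and 188 in plate 2, close to its parent Rps27 at 636 and 212, so it made up 47.7% and 46.9% of the pair. Rpl22l1 was at 66.9 and 21.8 CPM per kilobase and thus above its parent Rpl22, at 50 and 17. Rpl36al made up 35.2% and 44.4% of its pair with Rpl36a. Rpl7l1, whose protein acts in ribosome assembly, made up 6.29% and 21% of its pair with Rpl7. Rps27rt, a retrotransposed copy of Rps27, was at 93.2 and 15.5 CPM per kilobase. Reads of such near copies may have been split or lost in the mapping, so these shares are uncertain.

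None of the 5 paralogs that could be tested was called in any comparison. In cluster 1 over the mSC-like clusters their log2 ratios ran from 0.44 to 1.16. Rpl22l1 was at 185 and 64.1 CPM in cluster 1 and 163 and 67.9 CPM in cluster 2, with a ratio of 0.44 ± 0.55, while its parent Rpl22 was at 175 and 124 CPM against 90.8 and 43.5 CPM, with a ratio of 1.16 ± 0.60. Rps27l was at 655 and 207 CPM in cluster 1 and 328 and 216 CPM in cluster 2, and the plates thus differed in direction.

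Other genes of the translation machinery were compared in the same fits. Of 15 translation factors and related genes with TOP messages, none was called in cluster 1 over the mSC-like clusters or in cluster 2 over cluster 4, and 13 had a positive log2 ratio in each of these comparisons, with medians of 0.64 and 1.13. Eef1a1, which brings aminoacyl-tRNA to the ribosome, had a log2 ratio of 0.79 ± 0.25 in cluster 1 and 1.39 ± 0.30 in cluster 2 over cluster 4, and Eif3f had ratios of 1.20 ± 0.38 and 1.13 ± 0.45.

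Ribosome biogenesis genes were less uniform. Of 30 tested, 1 was called in cluster 1, namely Myc, a transcription factor that drives ribosome production (log2 ratio 6.70 ± 1.17, adjusted p = 0.0165 by edgeR), and 21 of 30 had a positive ratio, with a median of 0.62. Myc was also called in cluster 0 (4.96 ± 1.13, adjusted p = 0.0386), where the members had a median near 0. In cluster 2 over cluster 4, none of the 30 was called, and the median was 0.10. None of 20 genes of mTORC1 signalling was called in these comparisons, and their medians were 0.10 and 0.36. Of 78 mitochondrial ribosomal protein genes, which build the separate ribosome of the mitochondrion, none was called in either comparison and the medians were 0.25 and -0.05, beside 0.16 and 0.13 for all other genes. Between the classes Mrps6 was called lower in nm(R)SC-like cells (-2.54 ± 0.44, adjusted p = 0.0358).

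**Figure D5:**
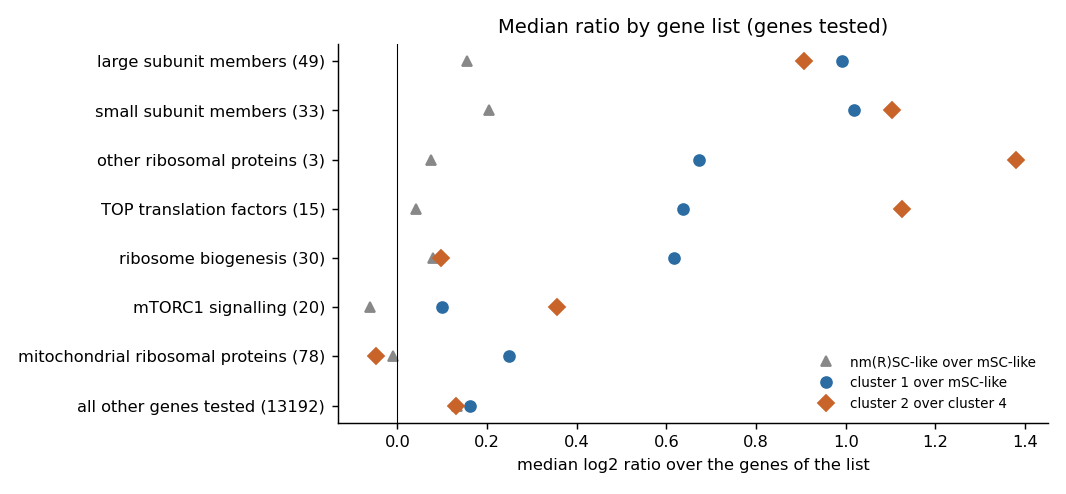
Median log2 ratio over the genes tested of each list, with their number in parentheses, for nm(R)SC-like over mSC-like cells, for cluster 1 over the mSC-like clusters, and for cluster 2 over cluster 4. Cytosolic ribosomal proteins had medians near 1 in the cluster comparisons, where mitochondrial ones had 0.25 and -0.05.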

How the data were processed

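Single-cell libraries of sorted Schwann cells (Smart-seq2) were measured on 2 plates of 384 cells. The deposited table holds, for each cell, the counts of reads in each gene, not normalized. Per the labels it was made with STAR 2.6.1c and featureCounts on GRCm38.p5, while the study's methods name other versions. The settings for strand, for multi-mapping reads and for reads over several genes were not given in the sources used here. The exons of 16 members, with 15.9% of the reads of all members, overlap another gene of the table, and the 9 -ps genes held 0.209% as many reads as the members. Symbols, coordinates and exon lengths came from GENCODE M21, where 25664 genes were found, and promoters from RefSeq.

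As in the study, cells with under 1500 genes were dropped. After scaling each cell to 100000 reads and taking logs, the plates were integrated with 12 dimensions and clustered at resolution 0.5 in Seurat 5.3.0. A cluster was given the class with the higher mean marker level if at least 3 of its markers reached 50 CPM. It stayed unnamed with none of its markers among its 10 leading genes and a median depth under 33.3% of the plate. The mSC-like markers were Cldn19, Drp2, Egr2, Fa2h, Gjb1, Mag, Mal, Pllp, Pmp22, Prx and Ugt8a, the nm(R)SC-like ones Cdh2, Chl1, Ednrb, Emp1, Gap43, Gfap, Itga1, Scn7a and Sema3e, and these 20 were not tested. No doublet caller was run. These classes may not match the study's own.

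Counts were summed per plate and class or cluster (at least 10 cells) and tested with edgeR 4.0.16 (quasi-likelihood, TMM, filterByExpr) under R 4.3.3, with plate as a block, since the cells of a plate came from the same pooled mice. Members were tested between clusters built without them. The other genes were split at random into 2 parts, each tested between clusters built from the other part, and these gave the same class to 96.1% of 645 cells for either part. Clusters matched less closely than classes. Cluster 3 had no counterpart in 1 part, so its background holds the genes of the other part. In the part without it, the cluster matched to cluster 0 held 122 and 182 cells in plates 1 and 2, against 67 and 108 in cluster 0 itself. Part of the background of cluster 0 thus came from a wider group of cells. p-values were adjusted together (Benjamini-Hochberg). Cells are not replicates, and n is 2 plates. The p-values measure how far the differences between groups varied from plate to plate, after the level of each plate was taken out. They do not measure the spread between mice, which were pooled within a plate. Scripts were tested on simulated data. Alternatives were DESeq2 1.42.0, other scalings, filters, clusterings and thinning. Genes were named by a fixed rule: called members with the highest and lowest ratios (at most 5 each, or 3 each by value where none was called), the 5 members highest per length, all paralogs and members with special roles, and called genes of other lists. Rps2, Rps3, Rpsa, Rpl4, Rpl39 in the account of plates, Eef1a1, Eif3f, Pmp22, Rps19 and the marker genes were named after their values were seen. The members and lists were chosen with earlier results of these data known. Results on some genes are not reported here.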

Additional observations from a re-analysis of the deposited data

Results flagged for a closer look

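The class comparison of the share of reads in members went in opposite directions in the plates. On the log2 scale, nm(R)SC-like over mSC-like, the ratio was 0.84 for plate 1 but -0.18 for plate 2, and the difference between the plates was not tested.

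Cells outside the comparisons also held reads in members. Those with fewer than 1500 detected genes gave 3.36% of their reads to members in plate 1 (44 cells) and 3.22% in plate 2 (50 cells), at a median of 2131 and 2451 reads per cell. The unnamed cluster 5, led by cell-cycle genes, gave 3.39% in plate 1 (16 cells) and 2.57% in plate 2 (13 cells). In plate 2 its cells had a median of 4081 reads against 267800 in plate 1. The share fell with depth across the cells of cluster 5 in both plates, a description over few cells. Spearman's rho was -0.638 in plate 1 and -0.857 in plate 2. There were no control samples, and any share is above the limit that a count of 0 allows.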

How the results depend on the processing

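No member was called between the classes in any of the 12 alternatives with a test, including the fit with no replicate block (0), and no member among clusters 0, 1 and 3 in any. The counts of called members were less stable. For each nm(R)SC-like cluster against mSC-like, 4 members became 1 with a minimum of 1000 detected genes, 0 with 2500, 2 with DESeq2 size factors, 2 with TMM factors without members, and 13 after thinning. Between the mSC-like clusters, 2 became 0 under each of the first 4 of these, 5 after thinning and 4 with DESeq2. For cluster 1 against the other nm(R)SC-like clusters, 0 became 1 with 1000 genes and 2 with DESeq2. The median log2 ratio of members in cluster 1 over mSC-like fell from 1.00 to 0.79 with 1000 genes, and by plate it was 0.88 without replicate 1 and 1.17 without replicate 2. DESeq2 size factors lowered the median of all other genes between the mSC-like clusters from 0.13 to 0.02, against 0.88 for the members. The log2 share ratio of the classes was 0.33 as a mean of plates and -0.45 with no integration (-0.26 and -0.65 by plate), where most cells of cluster 1 in plate 1 were named mSC-like. It was -0.18 without replicate 1 and 0.84 without replicate 2. With 1 plate left out no test remains. Adjusted p of Rplp0 in cluster 1 ran from 0.0152 to 0.0637 over 7 alternatives, that of Rpl10 from 0.016 to 0.24, of Rpl13 from 0.0178 to 0.195 and of Rps4x from 0.0391 to 0.0867. Between the mSC-like clusters it ran from 0.00854 to 0.739 for Rpl10 and from 0.0377 to 0.294 for Rplp0. With 2500 genes no cluster matched cluster 0, which has no value there. No causes were tested.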
